A study of Rattus norvegicus with 6 samples.

Results

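The enzymes that hydroxylate collagen inside the cell and crosslink it outside are described here in rat bone marrow mesenchymal stem cells. They are 10 genes, chosen by name among the 21026 gene rows of the count table: the lysyl oxidases Lox, Loxl1, Loxl2, Loxl3 and Loxl4, the lysyl hydroxylases Plod1, Plod2 and Plod3, and the prolyl 4-hydroxylase subunits P4ha1 and P4ha2. Polyadenylated RNA was sequenced from cells labelled aged and cells labelled young, with 3 libraries in each group, and aged was compared with young. Both groups carry the same cell type label and no other treatment. The labels call the libraries of a group biological replicates and state no age, strain, sex, passage number or animal, so each p-value reflects only how far these libraries scatter, part of which may be technical.

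Fibrillar collagen is modified in the endoplasmic reticulum before it is secreted. Prolyl 4-hydroxylase, built of a catalytic alpha subunit (P4ha1 or P4ha2) and protein disulfide isomerase (P4hb), hydroxylates prolines that stabilise the triple helix, and the Plod enzymes hydroxylate lysines. Both kinds of hydroxylase need oxygen, iron, 2-oxoglutarate and ascorbate. Outside the cell the copper-dependent lysyl oxidases turn lysine and hydroxylysine side chains into aldehydes, which then react to form the crosslinks that give bone and other connective tissue its strength. Whether the lysines at the chain ends were hydroxylated by Plod2 decides which class of crosslink can form.

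The 10 enzymes did not move in one direction. In aged cells Plod2 and Lox were 3.15-fold and 2.61-fold higher, and Loxl1, Loxl3 and Plod1 were 5.25-fold, 2.68-fold and 2.12-fold lower. P4ha2 and Plod3 were lower by smaller folds, P4ha1 was 1.21-fold higher, and Loxl2 differed least. Loxl4 was 1.25-fold lower, a direction that turned when libraries were scaled by size alone. Within each of the 3 enzyme families the reads therefore shifted between members. All 10 genes passed the filter on low counts and all 10 were called, 4 of them higher and 6 lower. A gene was called at an adjusted p under 0.05 in edgeR's quasi-likelihood test, with Benjamini-Hochberg adjustment over 14273 genes tested. Of all genes tested 86.4% were called, 44.7% higher and 41.8% lower, so the number of called enzymes is near the background and does not set them apart. A change of at least 2-fold was called for 5 of the 10 enzymes, against 50.4% of all genes tested. The aged and young libraries of each enzyme did not overlap, which was also the case for 87.5% of all genes tested. The median log2 change of the 10 was -0.52 (-0.18 with scaling by library size alone), beside 0.05 over all genes tested.

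Totals ran from 34638874 to 38921547 counts in aged libraries and from 40180480 to 42479626 in young ones. Levels are in CPM, which puts each library on the same total, adjusted by edgeR's trimmed mean factors (TMM), which were above 1 in all aged libraries and below 1 in all young ones. Scaling by library size alone instead raised the log2 changes by a median of 0.34 over all genes, and 62.3% of called genes were then higher instead of 51.7%. Mitochondria-encoded genes took 4.25% to 4.46% of the counts in aged libraries and 1.07% to 1.36% in young ones. Most of the stromal markers were well covered. Thy1, Eng, Cd44, Pdgfra, Pdgfrb and Col1a1 had at least 6051 counts in every library, whereas Lepr and Vcam1 had at most 37. The stromal markers were not even between the groups. Of 13 tested, 8 were lower and 3 higher in aged cells, beside 41.8% and 44.7% of all genes tested. Cxcl12 had 203 ± 1.44 CPM in aged and 3387 ± 165 CPM in young cells, and Nt5e 47.3 ± 0.561 and 10.5 ± 0.347 CPM (SD, n = 3 each). Of the 12 myeloid markers, Ptprc, which encodes the pan-leukocyte protein CD45, had 1 count in all aged libraries together and 0 in young ones. The summed myeloid list was 49.0 to 50.5 CPM of the library total in aged libraries and 83.6 to 85.8 CPM in young ones, but its 4 tested genes went opposite ways. Csf1r was higher in aged cells, with 837 to 935 counts in aged libraries and 8 to 19 in young ones. Cd14, Lyz2 and Cd68 were lower, with 842 to 889, 3 to 15 and 20 to 39 counts in aged libraries and 2910 to 3029, 347 to 422 and 68 to 130 counts in young ones. The summed endothelial list stayed between 0.404 and 0.761 in aged libraries and between 0.212 and 0.516 in young ones, with Emcn at 0 counts throughout. The part of any of these differences in the results below was not tested.

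**Figure D1:**
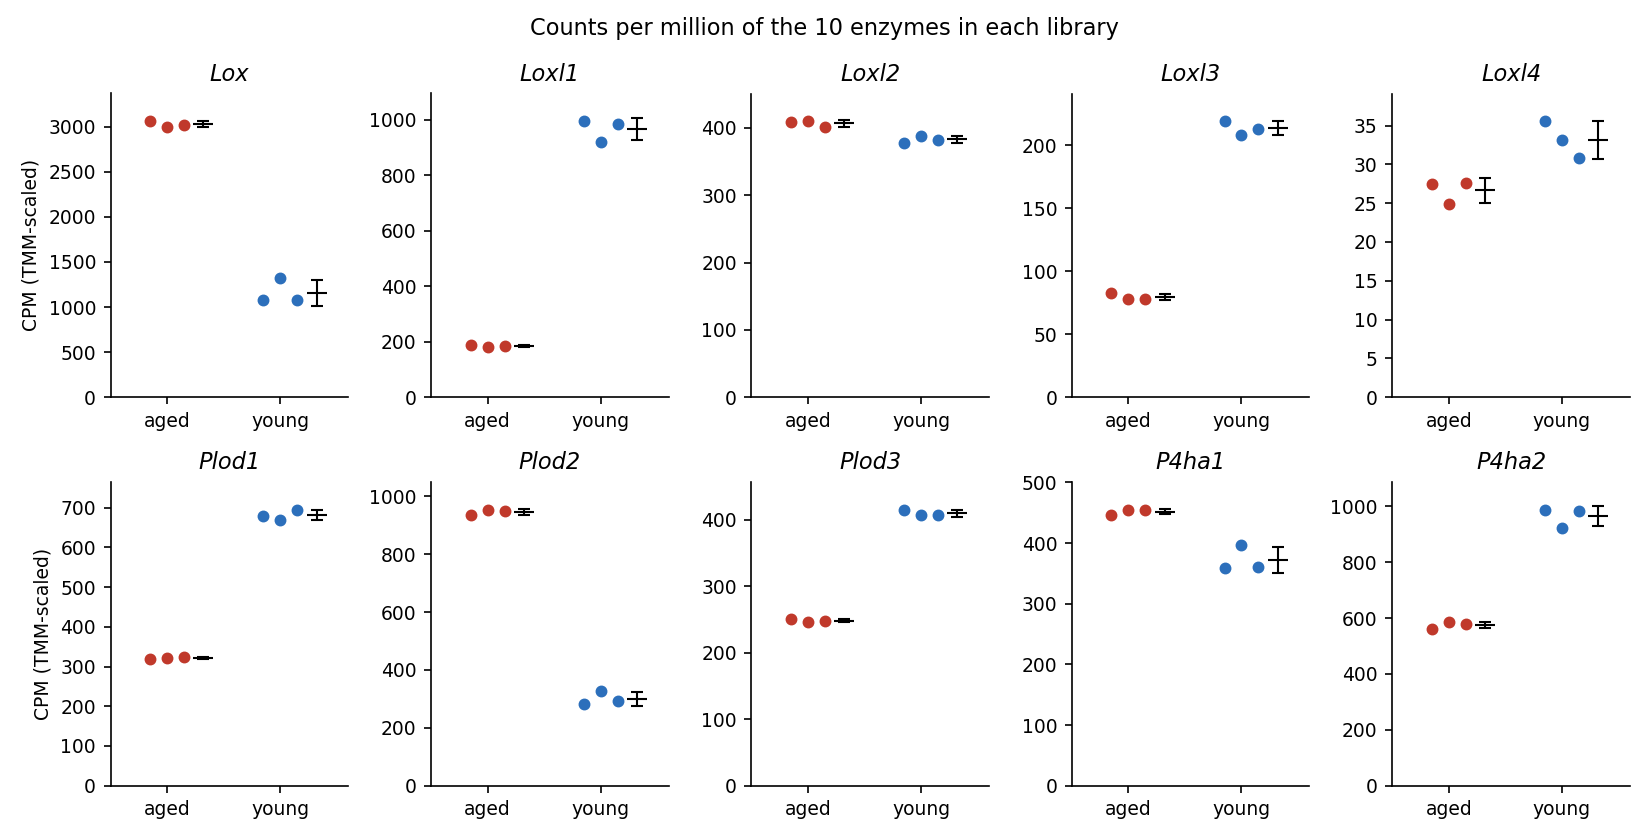
TMM-scaled CPM of the 10 enzymes, with 1 panel per gene, 1 point per library (red aged, blue young) and the mean with its SD over 3 libraries beside the points. The groups overlap in none of the 10 panels, and the differences in mean CPM are widest for Lox, Loxl1 and Plod2.

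Among the lysyl hydroxylases, Plod2 went opposite to both of its relatives. Plod2, the enzyme that hydroxylates the telopeptide lysines at the chain ends, had 935, 954 and 949 CPM in aged libraries and 281, 326 and 293 CPM in young libraries. Every aged library stood far above every young one. The log2 change was 1.66 ± 0.044 (SE, edgeR adjusted p = 3.3e-16). Because sequencing was done in bulk, more RNA per cell and more cells with the transcript cannot be told apart, here and below.

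Plod1, which hydroxylates lysines within the triple helix and is mutated in kyphoscoliotic Ehlers-Danlos syndrome in humans, had 319, 320 and 324 CPM in aged libraries and 679, 670 and 695 CPM in young libraries. All aged libraries lay below all young ones, with a log2 change of -1.09 ± 0.031 (SE, edgeR adjusted p = 8.4e-16). Plod3, which also attaches sugars to hydroxylysine, had 251, 246 and 248 CPM in aged libraries and 416, 407 and 407 CPM in young ones. It too was lower in all aged libraries, with a log2 change of -0.72 ± 0.032 (SE, edgeR adjusted p = 4.5e-13).

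As a share of the reads of the 3 Plod genes, Plod2 took 62.2%, 62.8% and 62.4% in aged libraries and 20.4%, 23.2% and 21.0% in young libraries. Plod1 took 21.2% ± 0.115 in aged and 49.0% ± 1.09 in young libraries, and Plod3 16.4% ± 0.256 and 29.5% ± 0.657 (SD, n = 3 each). The gene with the most Plod reads was thus Plod2 in every aged library and Plod1 in every young one. The ratio of Plod2 to Plod1 reads was 6.71-fold higher in aged cells (difference of 2.75 on the log2 scale, exact two-sided permutation test over libraries, p = 0.1). With 3 libraries against 3, 0.1 is the smallest p this test can give. Such ratios are formed within a library and do not depend on library scaling. Reads were not divided by transcript length, so a share says how reads, not molecules, were divided, and only its change between groups is read here. In TMM-scaled CPM the sum over the 3 genes changed much less, 1515 ± 9.27 CPM in aged and 1391 ± 14.1 CPM in young cells (SD, n = 3 each). Unlike the ratios, this sum depends on library scaling. With library size alone the log2 changes were 1.99 for Plod2, -0.75 for Plod1 and -0.39 for Plod3. The sum was not computed in that setting.

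The catalytic prolyl 4-hydroxylase subunits also moved apart. P4ha1, the most widely used alpha subunit, had 447, 454 and 455 CPM in aged libraries and 359.5, 398 and 361 CPM in young ones. The lowest aged library stood above the highest young one, with a log2 change of 0.28 ± 0.038 (SE, edgeR adjusted p = 2.9e-06). P4ha2, a second alpha subunit known from bone and cartilage cells, had 561, 584 and 578 CPM in aged libraries and 988, 924 and 982 CPM in young ones. Here all aged libraries were lower, with a log2 change of -0.75 ± 0.033 (SE, edgeR adjusted p = 3.7e-13). P4ha1 took 44.0% ± 0.282 of the reads of both genes in aged and 27.9% ± 1.92 in young libraries (SD, n = 3 each), and the ratio of P4ha1 to P4ha2 reads was 2.04-fold higher in aged cells (exact permutation test, p = 0.1). P4ha2 still had more reads than P4ha1 in all 6 libraries. The sum over both genes was 1027 ± 16.3 CPM in aged and 1337 ± 13.8 CPM in young cells (SD, n = 3 each). This sum rests on TMM scaling. With library size alone, where it was not computed, the log2 changes were 0.61 for P4ha1 and -0.41 for P4ha2.

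The lysyl oxidases held the widest range of change. Lox, the founding member of the family and the main crosslinking enzyme of fibrillar collagen and elastin, had 3064, 2998 and 3019 CPM in aged libraries and 1074, 1326 and 1080 CPM in young libraries. The groups were far apart, and young replicate 2 stood above the other young libraries. The log2 change was 1.38 ± 0.056 (SE, edgeR adjusted p = 1.4e-13). Loxl1, which is tied to elastic fibre upkeep, had 186, 181 and 184.5 CPM in aged libraries and 995, 919 and 985 CPM in young ones. No aged library came near a young one, and the log2 change was -2.39 ± 0.036 (SE, edgeR adjusted p = 3.2e-19). This was the lowest of the 10, at percentile 5.11 of all tested genes ranked from the largest fall to the largest rise, while Plod2, the highest, stood at percentile 79.7.

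Loxl2, Loxl3 and Loxl4 share scavenger receptor domains that Lox and Loxl1 lack. Loxl3 had 82.5, 78.0 and 78.3 CPM in aged libraries and 219, 208 and 213 CPM in young ones. It was lower in every aged library, with a log2 change of -1.42 ± 0.041 (SE, edgeR adjusted p = 1.2e-15). Loxl2, which can crosslink collagen IV of basement membranes, had 409, 410 and 401 CPM in aged libraries and 378, 389 and 382 CPM in young ones. The groups did not overlap but lay close together, and the log2 change of 0.09 ± 0.031 (SE) had an edgeR adjusted p of 0.015. That call was lost without aged replicate 1 (adjusted p = 0.053), without aged replicate 2 (adjusted p = 0.062), without young replicate 1 (adjusted p = 0.14), without young replicate 3 (adjusted p = 0.10) and without the low-count filter (adjusted p = 0.066). Loxl4, the least read of the 10, had 27.5, 24.8 and 27.6 CPM in aged libraries and 35.6, 33.1 and 30.8 CPM in young ones. Its groups were also separate but close, with a log2 change of -0.32 ± 0.072 (SE, edgeR adjusted p = 5.8e-04), which became 0.02 and was not called when libraries were scaled by size alone (adjusted p = 0.80).

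Of the reads of the 5 lysyl oxidase genes, Lox took 81.3%, 81.2% and 81.4% in aged libraries and 39.7%, 46.1% and 40.1% in young libraries. Loxl1 took 4.94% ± 0.0337 in aged and 35.1% ± 2.74 in young libraries, Loxl2 10.9% ± 0.162 and 13.9% ± 0.345, and Loxl3 2.14% ± 0.0458 and 7.76% ± 0.460 (SD, n = 3 each). The ratio of Lox to Loxl1 reads was 13.8-fold higher in aged cells (difference of 3.78 on the log2 scale, exact permutation test, p = 0.1). Loxl2 reads relative to Loxl3 reads were 2.85-fold higher in aged cells (exact permutation test, p = 0.1). The summed lysyl oxidase level was 3724 ± 40.0 CPM in aged and 2756 ± 103 CPM in young cells (SD, n = 3 each), a sum in which Lox rose and Loxl1 and Loxl3 fell. Its size also depends on TMM scaling, and it was not computed with library size alone.

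**Figure D2:**
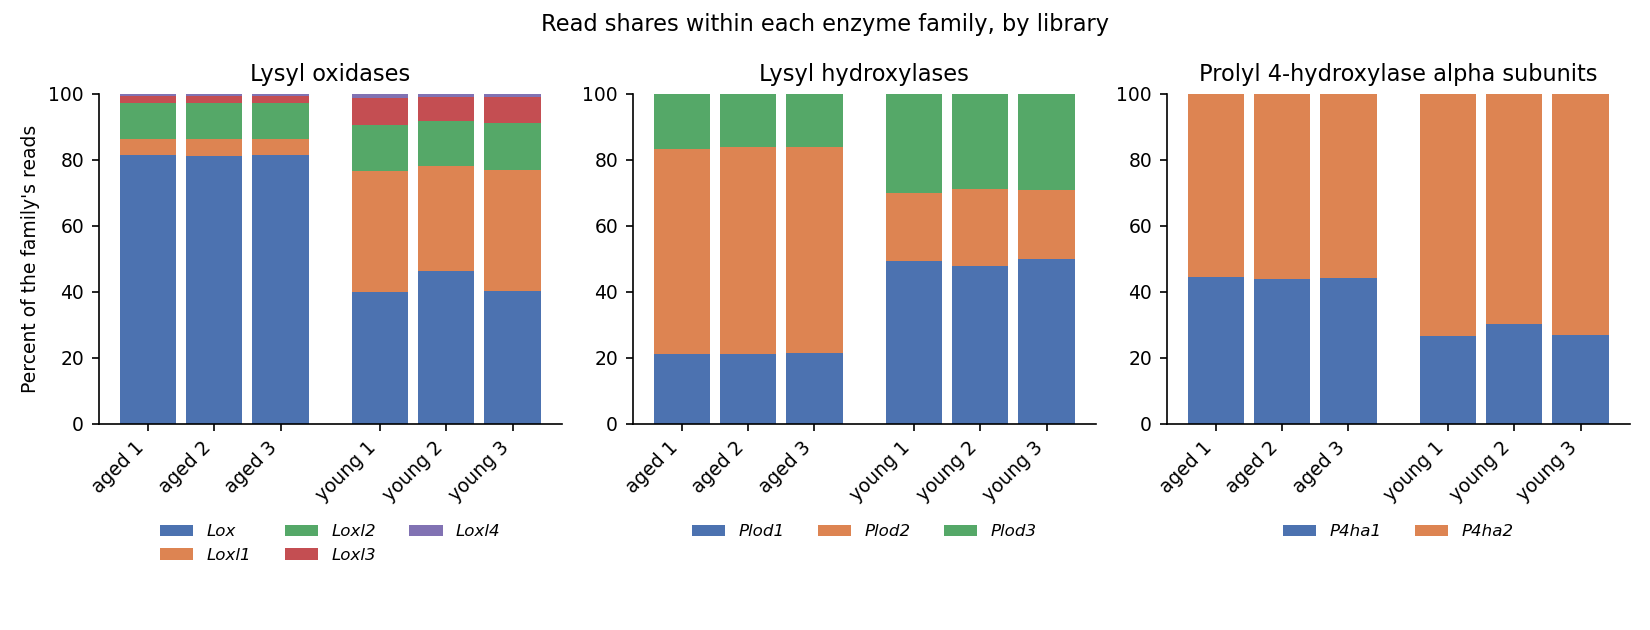
Percent of each family's reads that each member took, with 1 stacked bar per library (aged libraries left, young libraries right). Lox fills 81.2% to 81.4% of the lysyl oxidase bars in aged and 39.7% to 46.1% in young libraries, and Plod2 62.2% to 62.8% of the Plod bars in aged and 20.4% to 23.2% in young ones.

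The collagens that these enzymes act on were lower in aged cells for the abundant chains. Col1a1 had 10932 ± 41.6 CPM in aged and 19586 ± 202 CPM in young cells, Col1a2 6367 ± 76.4 and 11648 ± 298 CPM, and Col3a1 2236 ± 10.5 and 4053 ± 76.3 CPM (SD, n = 3 each). Of 9 listed fibrillar collagen genes, 8 were tested, and 5 were lower and 3 higher. Col5a1, a chain of the minor collagen V that starts fibrils, had the largest fall, with 685 ± 3.58 CPM in aged and 2736 ± 69.9 CPM in young cells, and Col11a1 the largest rise, with 903 ± 15.9 and 330 ± 15.6 CPM (SD, n = 3 each).

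Set against Col1a1 reads in the same library, 7 of the 10 enzymes were higher in aged cells and 3 were lower, namely Loxl1, Loxl3 and Plod1. Of the 14272 genes tested besides Col1a1, 68.6% had all aged libraries above all young ones in reads per Col1a1 read and 20.2% all below, so the split of the enzymes is near that background. Plod2 and Lox reads per Col1a1 read were 5.66-fold and 4.70-fold higher in aged libraries, and those of P4ha1 2.18-fold higher. P4ha2 and Plod3, which were lower in CPM, were 1.07-fold and 1.09-fold higher per Col1a1 read, beside a log2 change of -0.84 for Col1a1 itself. Loxl1 reads per Col1a1 read were lower, with a log2 difference of -1.55. No enzyme overlapped between groups in this ratio, as was so for 88.8% of those genes, and each exact permutation p was 0.1.

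Summed over the 5 hydroxylases, reads relative to the listed fibrillar collagens were 1.64-fold higher in aged cells (log2 difference of 0.71). Summed over the 5 lysyl oxidases they were 2.38-fold higher (log2 difference of 1.25). Col1a1, Col1a2 and Col3a1, which are in the denominator, had log2 changes of -0.84, -0.87 and -0.86. The median over all genes tested was 0.05. A rise against these collagens therefore does not by itself set the enzymes apart. The share of all genes with such a rise was not computed. Both enzyme sums give most weight to the genes with most reads. With equal weight for each gene, enzymes and collagens alike, the hydroxylase difference was 0.19, and the lysyl oxidase difference turned to -0.22.

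**Figure D3:**
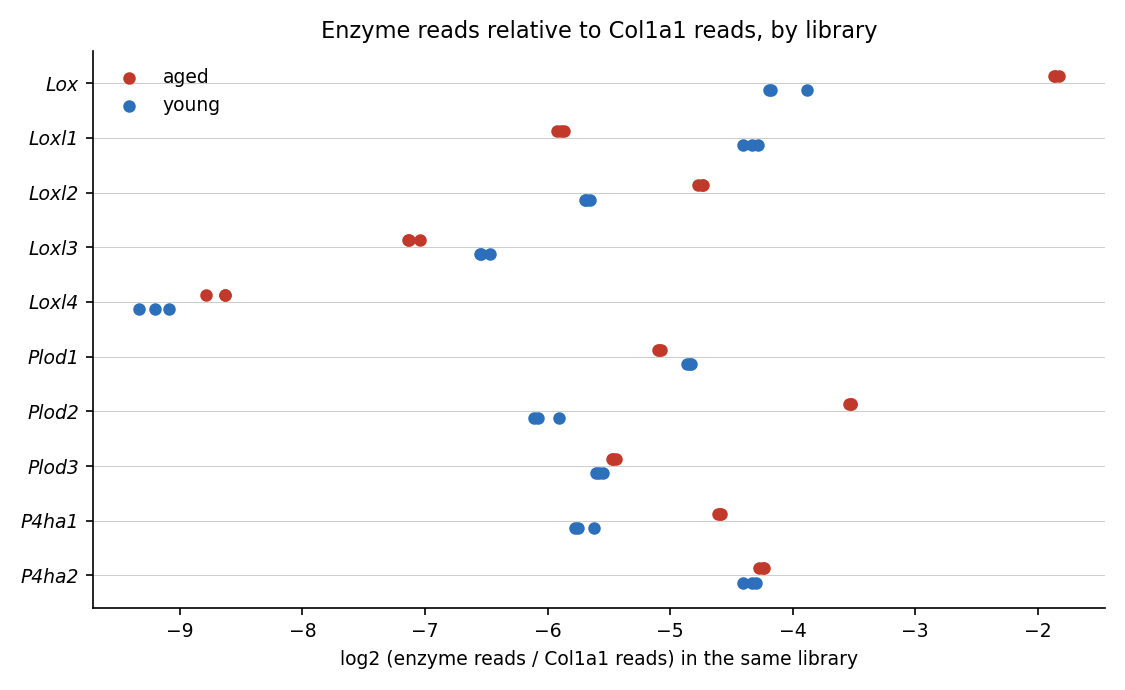
Log2 ratio of each enzyme's reads to Col1a1 reads in the same library, with 1 point per library (red aged, drawn above blue young). Aged points lie right of the young ones for 7 genes and left of them for Loxl1, Loxl3 and Plod1, and the widest gaps are those of Plod2 and Lox.

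Other genes of collagen modification in the endoplasmic reticulum went both ways. Of 16 listed, 15 were tested, of which 11 were lower and 3 higher, with a median log2 change of -0.35. Over all genes tested 41.8% were lower and 44.7% higher. With scaling by library size alone 6 were lower and 5 higher, with a median of -0.02. That scaling raised the log2 changes over all genes by a median of 0.34. P4hb, the partner of both alpha subunits, had 2841 ± 15.7 CPM in aged and 3605 ± 70.1 CPM in young cells (SD, n = 3 each). P4ha1 reads per P4hb read were 1.54-fold higher in aged cells (exact permutation test, p = 0.1). P4ha2 went the other way against P4hb, with log2 changes of -0.75 for P4ha2 and -0.34 for P4hb. Summed, P4ha1 and P4ha2 stood at 0.768 of their young level in aged cells, close to 0.788 for P4hb, both with TMM scaling. P4ha3, another alpha subunit, had a log2 change of -0.51, Crtap and P3h1 of the prolyl 3-hydroxylase complex -1.02 and -0.41, and the isomerase gene Ppib of that complex -0.21. Serpinh1, the collagen chaperone Hsp47, had -0.80, the galactosyltransferase gene Colgalt1 -0.34, and Fkbp10, a chaperone that assists Plod2, -0.35. The largest rises were in Creld2 (2.45), a chaperone-like protein of the endoplasmic reticulum, and Mia3 (1.95), which loads procollagen into transport carriers. With library size alone, P4hb, Colgalt1, Fkbp10 and P3h1 were no longer called and Ppib was called higher (log2 change of 0.12).

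Propeptide processing genes were mixed. Of 9 listed, 6 were tested, with 4 lower and 2 higher. Bmp1, the proteinase that removes the C-propeptide of collagen and activates the Lox precursor, had 54.9 ± 1.24 CPM in aged and 224 ± 2.49 CPM in young cells (SD, n = 3 each), a log2 change of -2.03 (edgeR adjusted p = 8.6e-18). Adamts2, the N-propeptidase, was also lower (-1.69). Tll2, a relative of Bmp1 named after its values were seen, had 118, 148 and 121 counts in aged libraries and 0, 0 and 1 in young ones. Tll1, the other higher gene of the list, had 51.9 ± 1.87 CPM in aged and 33.5 ± 2.89 CPM in young cells (SD, n = 3 each). Its log2 change was 0.63. Among crosslinking enzymes of other kinds, Pxdn, the peroxidase that crosslinks collagen IV, had a log2 change of -1.46 and the transglutaminase gene Tgm1 one of -1.64. Tgm1 was low in both groups, with 3.02 ± 1.04 CPM in aged and 9.48 ± 0.761 CPM in young cells (SD, n = 3 each). Of the 6 genes on that list 3 were tested, 2 of them lower and 1 higher. The higher one was another transglutaminase gene, Tgm2, at 74.9 ± 0.932 CPM in aged and 38.4 ± 1.98 CPM in young cells (SD, n = 3 each). Its log2 change was 0.97.

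Partners of the lysyl oxidases and genes of copper supply split into 5 lower and 4 higher of 9 tested. Atp7a, the pump that loads copper onto secreted enzymes such as Lox, had 50.3 ± 1.73 CPM in aged and 7.41 ± 0.495 CPM in young cells (SD, n = 3 each), a log2 change of 2.76 (edgeR adjusted p = 5.3e-16). Ltbp4, a protein of elastic fibre assembly, had the largest rise on the list (4.01). Its counts were 572, 631 and 605 in aged libraries but only 35, 48 and 16 in young ones. The 5 lower genes were Fbln5 (-1.47), Efemp2 (-1.35), Fn1 (-1.21), Fmod (-1.04) and Atox1 (-1.02). Of 9 genes of cofactor supply, 8 were tested, with 5 lower and 3 higher. The ascorbate transporter gene Slc23a2 had 623 ± 18.3 CPM in aged and 67.1 ± 0.760 CPM in young cells (SD, n = 3 each), a log2 change of 3.21 (edgeR adjusted p = 1.5e-20). Tfrc, the transferrin receptor through which cells take up iron, rose by 4.59 on the log2 scale. The 5 lower genes of cofactor supply were Slc11a2 (-1.59), Glud1 (-1.20), Slc2a1 (-1.06), Slc39a13 (-0.99) and Slc39a14 (-0.46).

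P4ha1, P4ha2, Plod2 and Lox are known as targets of the hypoxia-inducible factors in several cell types. Of 22 other hypoxia-response genes tested, 16 were lower and 5 higher in aged cells, with a median log2 change of -0.82. With scaling by library size alone 14 were lower and 5 higher, with a median of -0.48. Hif1a, the gene of an oxygen-regulated subunit, had 319 ± 5.32 CPM in aged and 73.6 ± 8.70 CPM in young cells (SD, n = 3 each), a log2 change of 2.12. Epas1, the gene of another such subunit, went the other way. It had 89.7 ± 2.36 CPM in aged and 560 ± 22.2 CPM in young cells (SD, n = 3 each), a log2 change of -2.64. The oxygen sensor gene Egln3, itself a hypoxia target, had the largest fall (-5.38), and the histone demethylase gene Kdm3a the largest rise (2.67). Over the 7 lists of related genes together, 71 of 80 genes were tested, of which 48 were lower and 21 higher. With library size alone 41 were lower and 23 higher. The share of genes higher and lower in the background is given above, and nothing is read from these counts about any one list.

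**Figure D4:**
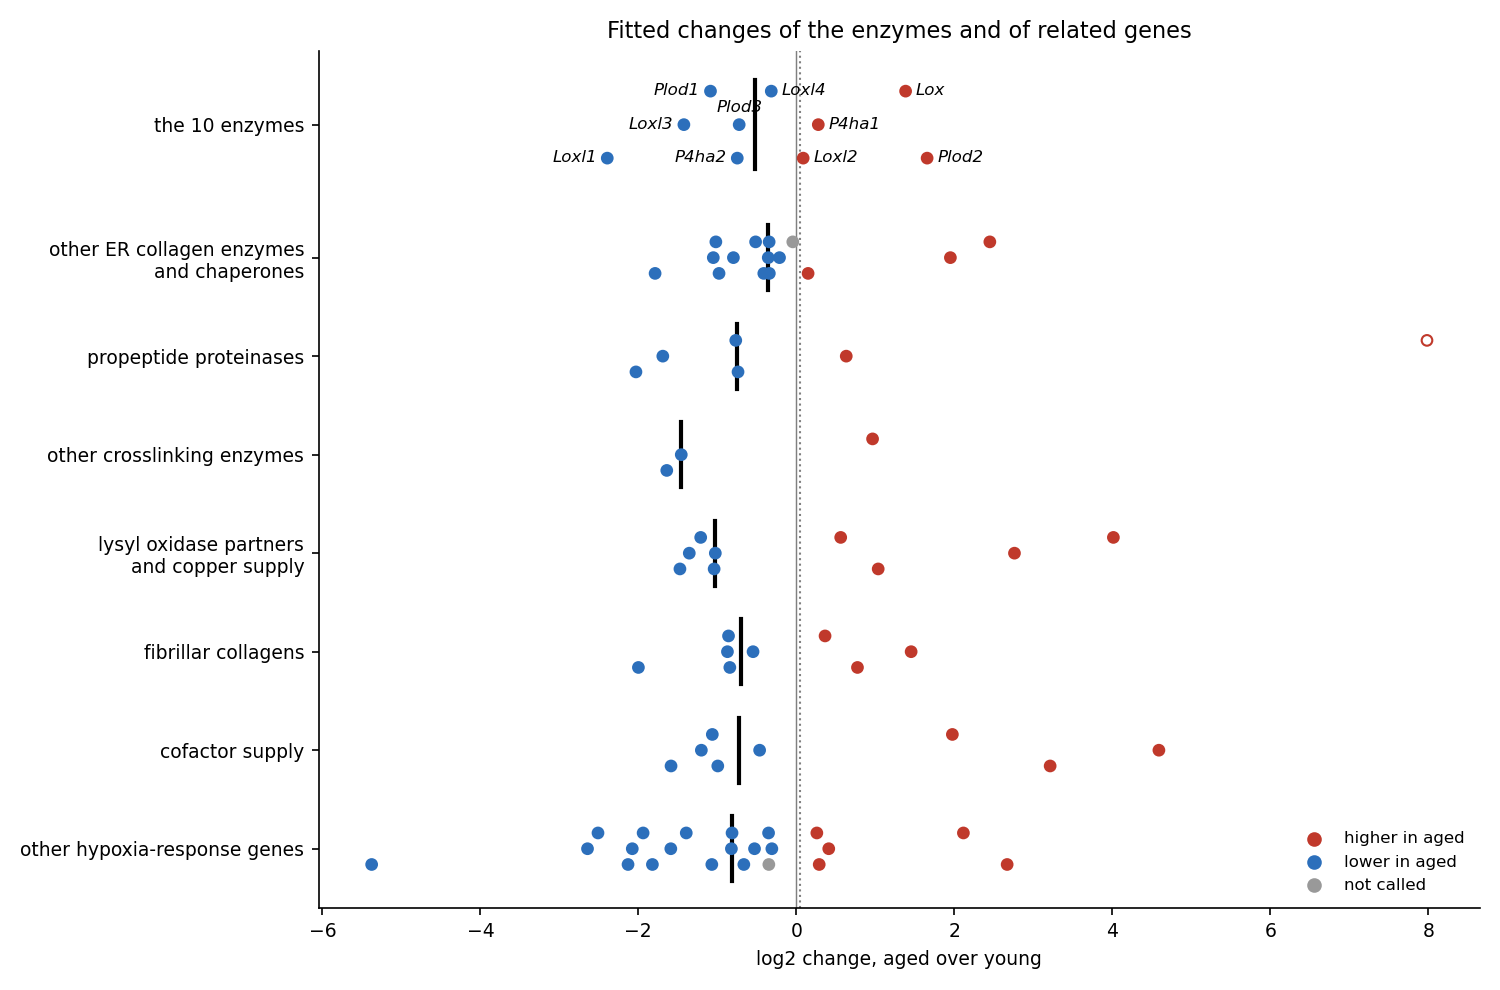
Fitted log2 change, aged over young, of the 10 enzymes (top row, named) and of the tested genes of 7 related lists, with 1 point per gene (red higher, blue lower, grey not called). Black bars are list medians, the dotted line is the median of all genes tested (0.05), and the open point is Tll2, whose fitted value rests on 1 count in the young libraries.

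The genomic span of the genes went with the changes across the transcriptome. Among 13557 tested genes matched by symbol to RefSeq (assembly GRCr8), the median log2 change was -0.57 in the decile with the shortest spans and 0.71 in decile 9, from 67.7 to 119.7 kb. It was lower again, at 0.46, in the decile with the longest spans. Spearman's rho across genes was 0.22, which is a description, since genes are not independent replicates and share libraries. Loxl2, Plod2 and P4ha1, with spans of 91.3, 82.7 and 111 kb, fall in decile 9, and all 3 were among the 4 enzymes called higher. Of all genes in decile 9, 61.9% were called higher and 28.8% lower, so these 3 calls do not set the enzymes apart. The call of Loxl2 was also lost in some settings, as given above. Plod2 lay above the median of its decile and Loxl2 and P4ha1 below it. Lox, with a span of 12.8 kb, belongs to a decile whose median was -0.17, against its own 1.38. The 6 enzymes called lower have spans of 10.6 to 28.8 kb, and each lay below the median of its decile. The part of gene span in these results was not tested.

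**Figure D5:**
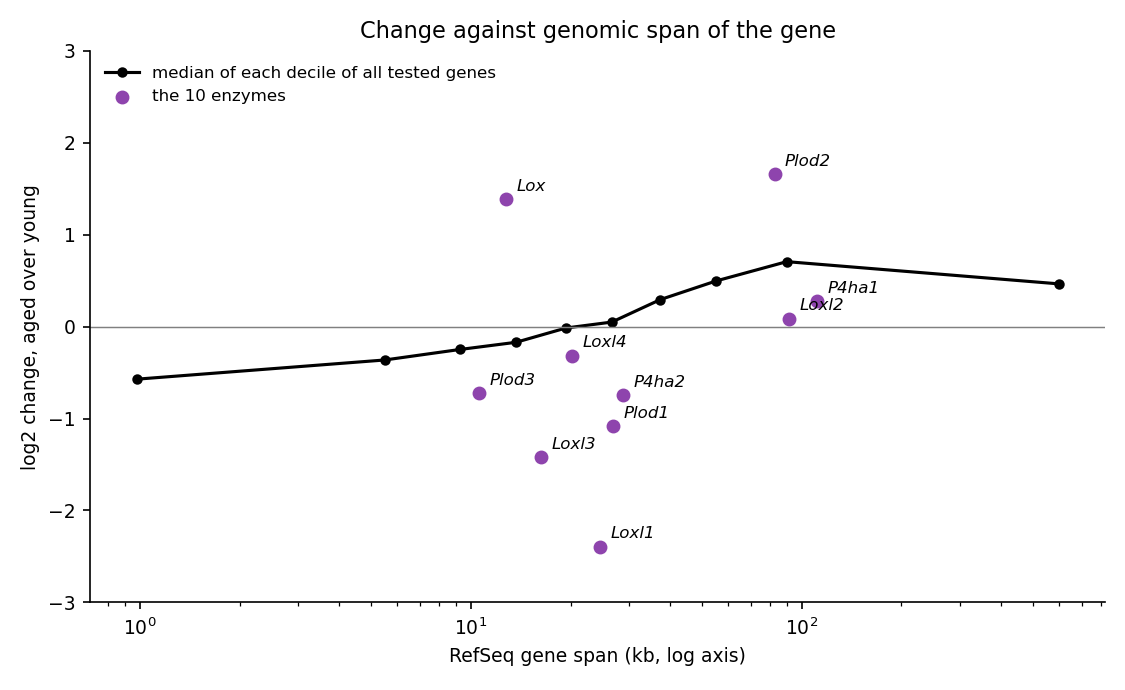
Log2 change, aged over young, against the RefSeq span of the gene (kb, log axis), with the 10 enzymes as purple points and the median of each decile of 13557 tested genes as the black line. Lox and Plod2 lie above the line and the other 8 enzymes below it.

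Young replicate 2 lay nearest to the aged libraries for 8 of the 10 enzymes, all but Loxl4 and Plod3. The same held for 51.1% of all called genes, beside 24.9% for young replicate 1 and 24.0% for young replicate 3. Without young replicate 2 the log2 changes of Lox and Plod2 were 1.49 and 1.72. RefSeq spans of Loxl3 and Plod3 overlap the protein-coding genes Htra2 and Znhit1, and the strand setting of the counting is not given in the sources used here, so reads from the overlaps cannot be told apart. Htra2 and Znhit1 were lower as well, with log2 changes of -1.09 and -1.23. They had 34.7 and 13.1 CPM in aged cells and 73.7 and 30.8 CPM in young cells. The spans of Lox and P4ha1 hold pseudogene or small RNA entries.

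The promoters of the paired genes that moved apart are shown, because the hypoxia-inducible factors recognise a short core that can be looked for in them. RefSeq promoter sequences (build GRCr8) were matched for 8 of the 10 genes, all but Lox and Loxl2. The 250 bases before the start were searched on both strands for ACGTG and GCGTG, the forms of that core. ACGTG also forms part of the E-box CACGTG, which none of the 8 windows holds. Capitals mark the matches, read 5′ to 3′ on the gene's strand, where a match on the opposite strand appears as CACGT or CACGC. The windows are chr8:101964068-101964317 on the plus strand for Plod2, chr5:163650738-163650987 on the minus strand for Plod1, chr20:27844796-27845045 on the plus strand for P4ha1 and chr10:38743644-38743893 on the plus strand for P4ha2.
Plod2: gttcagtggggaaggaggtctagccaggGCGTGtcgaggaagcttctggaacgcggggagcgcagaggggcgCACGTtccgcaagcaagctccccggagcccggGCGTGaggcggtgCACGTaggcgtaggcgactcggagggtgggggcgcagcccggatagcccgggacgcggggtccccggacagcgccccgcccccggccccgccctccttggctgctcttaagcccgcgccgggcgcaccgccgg
Plod1: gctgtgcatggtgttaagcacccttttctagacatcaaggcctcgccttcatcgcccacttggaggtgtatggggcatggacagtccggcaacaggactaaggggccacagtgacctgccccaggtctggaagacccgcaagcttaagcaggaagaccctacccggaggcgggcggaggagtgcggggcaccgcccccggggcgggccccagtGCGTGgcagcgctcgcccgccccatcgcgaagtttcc
P4ha1: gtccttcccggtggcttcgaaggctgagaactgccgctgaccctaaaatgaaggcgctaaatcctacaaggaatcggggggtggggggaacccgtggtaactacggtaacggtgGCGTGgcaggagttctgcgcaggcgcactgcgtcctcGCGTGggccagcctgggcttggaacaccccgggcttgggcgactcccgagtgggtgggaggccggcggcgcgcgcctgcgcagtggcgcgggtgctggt
P4ha2: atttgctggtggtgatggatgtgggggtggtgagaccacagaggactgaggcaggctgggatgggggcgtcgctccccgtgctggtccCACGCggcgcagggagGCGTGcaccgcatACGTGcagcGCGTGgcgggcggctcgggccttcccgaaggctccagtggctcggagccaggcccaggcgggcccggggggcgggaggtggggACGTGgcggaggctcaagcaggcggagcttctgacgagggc

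Plod2, which was higher in aged cells, held 4 matches, and Plod1, which was lower, held 1. In the other pair the order was the reverse, with 2 matches for P4ha1, which was higher, and 5 for P4ha2, which was lower. Loxl3 and Plod3 held 1 match each, and Loxl1 and Loxl4 none. At least 1 match was present in 37.9% of all 27457 promoter windows, and at least 4 in 2.61%. Among the promoters of tested genes, 53.9% of those called higher and 56.7% of those called lower held a match. The share with at least 4 was not counted for tested genes alone. Nor was it counted for windows as rich in G and C as those of Plod2 (74.8%) and P4ha2 (72.4%). The 2.61% therefore does not say how rare their matches are among like promoters. A match describes these letters and is not evidence of binding.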

How the data were processed

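Polyadenylated RNA of rat bone marrow mesenchymal stem cells was sequenced in 3 aged and 3 young libraries made with a VAHTS Universal V6 kit, per the labels' protocols. The tools fastp, HISAT2 and HTSeq are named, per the submitters' processing notes. Not given in the sources used here are their versions, the genome build, the annotation and the strand setting. The table the authors deposited holds raw read counts per gene symbol, without normalization, and columns were matched to samples by library name.

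The test was run in edgeR 4.0.16 (R 4.3.3): filterByExpr (minimum count 10), TMM scaling, glmQLFit and glmQLFTest with group as the only term, and Benjamini-Hochberg adjustment over 14273 genes. Standard errors are the log2 change divided by the square root of F. Ratios within libraries were compared by exact two-sided permutation. Shares had been planned per coding length. No lengths were at hand, so unscaled reads were used. The procedure was tested on simulated data in which only a small part of the genes changed, in both directions. Most genes were called in the real data, so that simulation could not test the library scaling. Alternatives were other scalings (library size, RLE, TMM without mitochondria-encoded genes), DESeq2 1.42.0, limma-voom 3.58.1, no low-count filter, a replicate block and leaving out each library.

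The members and lists were chosen with earlier results of these data known. All members are named in full. Of each related list the text names the 2 genes with the largest change at a mean of at least 5 CPM, and 14 genes fixed by name. Tll1, Tll2, Tgm2 and Epas1 were named in addition, after their values were seen. So were the lower genes of the lists of lysyl oxidase partners and of cofactor supply.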

Additional observations from a re-analysis of the deposited data

How the results depend on the processing

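Over 13 alternative settings, 3 to 4 of the 10 enzymes were called higher and 5 to 6 lower. Calls and directions of Lox, Loxl1, Loxl3, Plod1, Plod2, Plod3, P4ha1 and P4ha2 were kept in all 13. Loxl2 lost its call in 5 settings, and the log2 change of Loxl4 turned to 0.0197 with library size alone. That scaling also moved the median log2 change of the 10 enzymes to -0.18, and the log2 change of Ppib to 0.12. The log2 difference of hydroxylase to fibrillar collagen reads was 0.75 against Col1a1 and Col1a2 only and 0.19 with equal weight per gene. That of lysyl oxidase to fibrillar collagen reads was -0.22 with equal weight per gene among enzymes and collagens, and the cause was not tested. Leaving out single libraries kept the Plod2 share difference between 40.3 and 41.7 percentage points and the Lox share difference between 38.2 and 41.3. Shares per coding length were not run.

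Same-numbered aged and young libraries did not deviate together (correlations of -0.033, -0.0054 and 0.034 over genes), so the numbers are not taken to pair them. With the replicate number as a block, 12162 genes were called instead of 12339, and 4 of the 10 enzymes remained higher and 6 lower. Depth did not limit the enzymes, since the least read, Loxl4, had 1075 or more counts in every library.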
